A study of Mus musculus with 21 samples.

Results

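The genes described are 8 of the CC chemokine system that governs where blood monocytes go: the ligands Ccl2, Ccl7, Ccl12, Ccl8, Ccl3 and Ccl4 and the receptors Ccr2 and Ccr1. They were taken by symbol from the count table. They are 8 of its 64050 symbols, and all 8 passed the filter on low counts that left 20462 genes for testing. The 21 libraries came from mouse skin after marrow transplantation, a model in which chronic graft-versus-host disease of allogeneic recipients hardens the skin. BALB/c recipients aged 8 weeks were irradiated with 700 cGy and received marrow from BALB/c donors (syngeneic) or from B10.D2 donors (allogeneic). Treatment started on day 21 and a skin area of 3 mm diameter was analysed at week 7.

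The 5 groups were syngeneic recipients given the isotype antibody mIgG2a LALA-PG (4 libraries), allogeneic recipients given the same isotype antibody (4), allogeneic recipients given mCAN10, an antibody to mouse IL1RAP (4), allogeneic recipients given ddH2O (4), and allogeneic recipients given nintedanib (5). IL1RAP is the co-receptor shared by the receptors for IL-36, IL-33 and IL-1, and nintedanib blocks the kinases of the VEGF, FGF and PDGF receptors. Antibodies were injected intraperitoneally at 20 mg/kg first and 10 mg/kg later. For nintedanib, 50 mg/kg by mouth each day stands in the treatment protocol, whereas intraperitoneal injection stands in the design text, so its route is uncertain. All recipients had been irradiated, and every allogeneic group carried B10.D2 marrow. The labels do not say that each library came from a separate mouse, so p-values measure the spread between these samples only.

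CC chemokines are small secreted proteins that attract leukocytes through G protein-coupled receptors. CCR2 lets inflammatory monocytes leave the marrow and enter tissue, and CCL2, CCL7 and mouse CCL12 are its ligands. CCL3 acts through CCR1, and CCL4 is its close relative, while mouse CCL8 is known as an agonist of CCR8, a receptor of type 2 helper and regulatory T cells. In skin these ligands are made by macrophages, fibroblasts, keratinocytes, endothelium and T cells after stimulation with cytokines such as TNF, IL-1 and interferon-gamma. In bulk skin, fewer cells of a type and less RNA per cell cannot be told apart.

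In the RefSeq annotation of GRCm38.p6 the genes Ccl2, Ccl7, Ccl12 and Ccl8 lie in 1 cluster on chromosome 11, where Ccl12 and Ccl8 are direct neighbours. Ccl3 and Ccl4 are neighbours elsewhere on chromosome 11, and Ccr1 and Ccr2 lie on chromosome 9. RefSeq promoter windows, from 250 bases before to 50 after the start of transcription, were found for 5 of the 8 genes (Ccl12, Ccl8, Ccl3, Ccr2 and Ccr1). The windows of 2 ligand genes that are neighbours, and those of both receptors, are shown because the ratio of the 2 transcripts of each pair parted treated from control libraries. They are chr11:82101595-82101894 for Ccl12 and chr11:82114935-82115234 for Ccl8, both on the plus strand. The others are chr9:124101933-124102232 for Ccr2 on the plus strand and chr9:123968643-123968942 for Ccr1 on the minus strand. Capitals mark the TATA box letters TATAAA and the core letters of an NF-kB site, GGGNNNNNCC.
Ccl12: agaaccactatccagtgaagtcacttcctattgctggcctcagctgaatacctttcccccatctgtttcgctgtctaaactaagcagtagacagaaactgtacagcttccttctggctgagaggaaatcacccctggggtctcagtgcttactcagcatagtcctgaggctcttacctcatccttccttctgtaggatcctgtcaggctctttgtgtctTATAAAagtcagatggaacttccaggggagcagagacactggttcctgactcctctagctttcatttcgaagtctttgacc
Ccl8: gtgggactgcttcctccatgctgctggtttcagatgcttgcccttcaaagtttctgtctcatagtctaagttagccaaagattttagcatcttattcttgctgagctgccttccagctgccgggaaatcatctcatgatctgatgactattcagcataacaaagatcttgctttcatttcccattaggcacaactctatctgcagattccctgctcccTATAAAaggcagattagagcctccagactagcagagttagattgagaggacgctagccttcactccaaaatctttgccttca
Ccr2: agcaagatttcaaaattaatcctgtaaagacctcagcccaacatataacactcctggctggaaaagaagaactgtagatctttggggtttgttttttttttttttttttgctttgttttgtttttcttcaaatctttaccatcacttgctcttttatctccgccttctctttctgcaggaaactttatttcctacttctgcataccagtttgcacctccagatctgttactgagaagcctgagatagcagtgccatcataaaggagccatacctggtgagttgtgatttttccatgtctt
Ccr1: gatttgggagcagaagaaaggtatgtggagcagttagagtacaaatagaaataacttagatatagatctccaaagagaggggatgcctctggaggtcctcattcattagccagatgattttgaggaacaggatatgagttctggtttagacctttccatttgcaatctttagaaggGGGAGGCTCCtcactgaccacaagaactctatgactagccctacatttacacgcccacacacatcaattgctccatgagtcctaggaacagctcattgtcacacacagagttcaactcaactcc

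Ccl12 and Ccl8 each had TATAAA on their own strand, at -31 and -32 from the start of transcription. Of 32851 RefSeq promoter windows of this length, 13.6% hold these letters on either strand. The Ccr1 window held GGGAGGCTCC at -74, a match to GGGNNNNNCC, which 50.8% of all windows hold. The C/EBP core letters TTNNGNAA, found in 40.7% of windows, occurred in Ccl3 at -100, in Ccr1 at -131 and on the opposite strand of Ccr2 at -243. None of the 5 windows held the letters TGANTCA of AP-1 (7.81% of all windows), TTCNNNGAA of an interferon-gamma activated site (8.3%) or GAAANNGAAA of an interferon-stimulated response element (3.44%) on either strand. These matches describe letters only, and no binding was measured.

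The libraries held 17130264 to 32899212 counts each. Gene names differed in part between 2 counting runs, the first with all 12 isotype and anti-IL1RAP libraries and the second with the 9 water and nintedanib libraries. Groups were therefore compared only within a run. Values are CPM, which are counts relative to library size, scaled with TMM factors. Keratinocyte markers were present in every library, at summed levels of 7636 to 84820 CPM over 9 genes. Hair follicle genes summed to 61020 and 22420 CPM in nintedanib replicates 1 and 3 and to at most 607.8 CPM in any other library. Skeletal muscle genes ranged from 21.5 to 66700 CPM in allogeneic isotype libraries and from 42900 to 65840 CPM in syngeneic ones.

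Ccl8 was by far the most abundant of the ligand transcripts. Per kilobase of exon its level in allogeneic isotype skin was 1869 ± 354 CPM per kb (SD, n = 4). Next came Ccl7 at 61.4 ± 15.0, Ccl2 at 33.9 ± 7.99 and Ccl12 at 15.9 ± 8.99 CPM per kb. Ccl4 and Ccl3 were lowest among the ligands, at 7.72 ± 3.13 and 6.66 ± 1.93 CPM per kb. The ranges of Ccl8, Ccl7 and Ccl2 did not overlap in that group, whereas those of Ccl2 and Ccl12, and those of Ccl4 and Ccl3, did. The receptor levels were 9.30 ± 4.55 CPM per kb for Ccr2 and 4.78 ± 1.72 for Ccr1. Of the summed per-length level of the 6 ligands, Ccl8 made up 87.8% ± 1.16 in syngeneic, 93.6% ± 1.94 in allogeneic isotype and 84.7% ± 6.76 in anti-IL1RAP libraries. In the second run it made up 92.7% ± 1.29 with water (n = 4) and 83.8% ± 6.18 with nintedanib (n = 5). Exon lengths came from GENCODE M21, in which no exon of the 8 genes overlaps another gene.

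**Figure D1:**
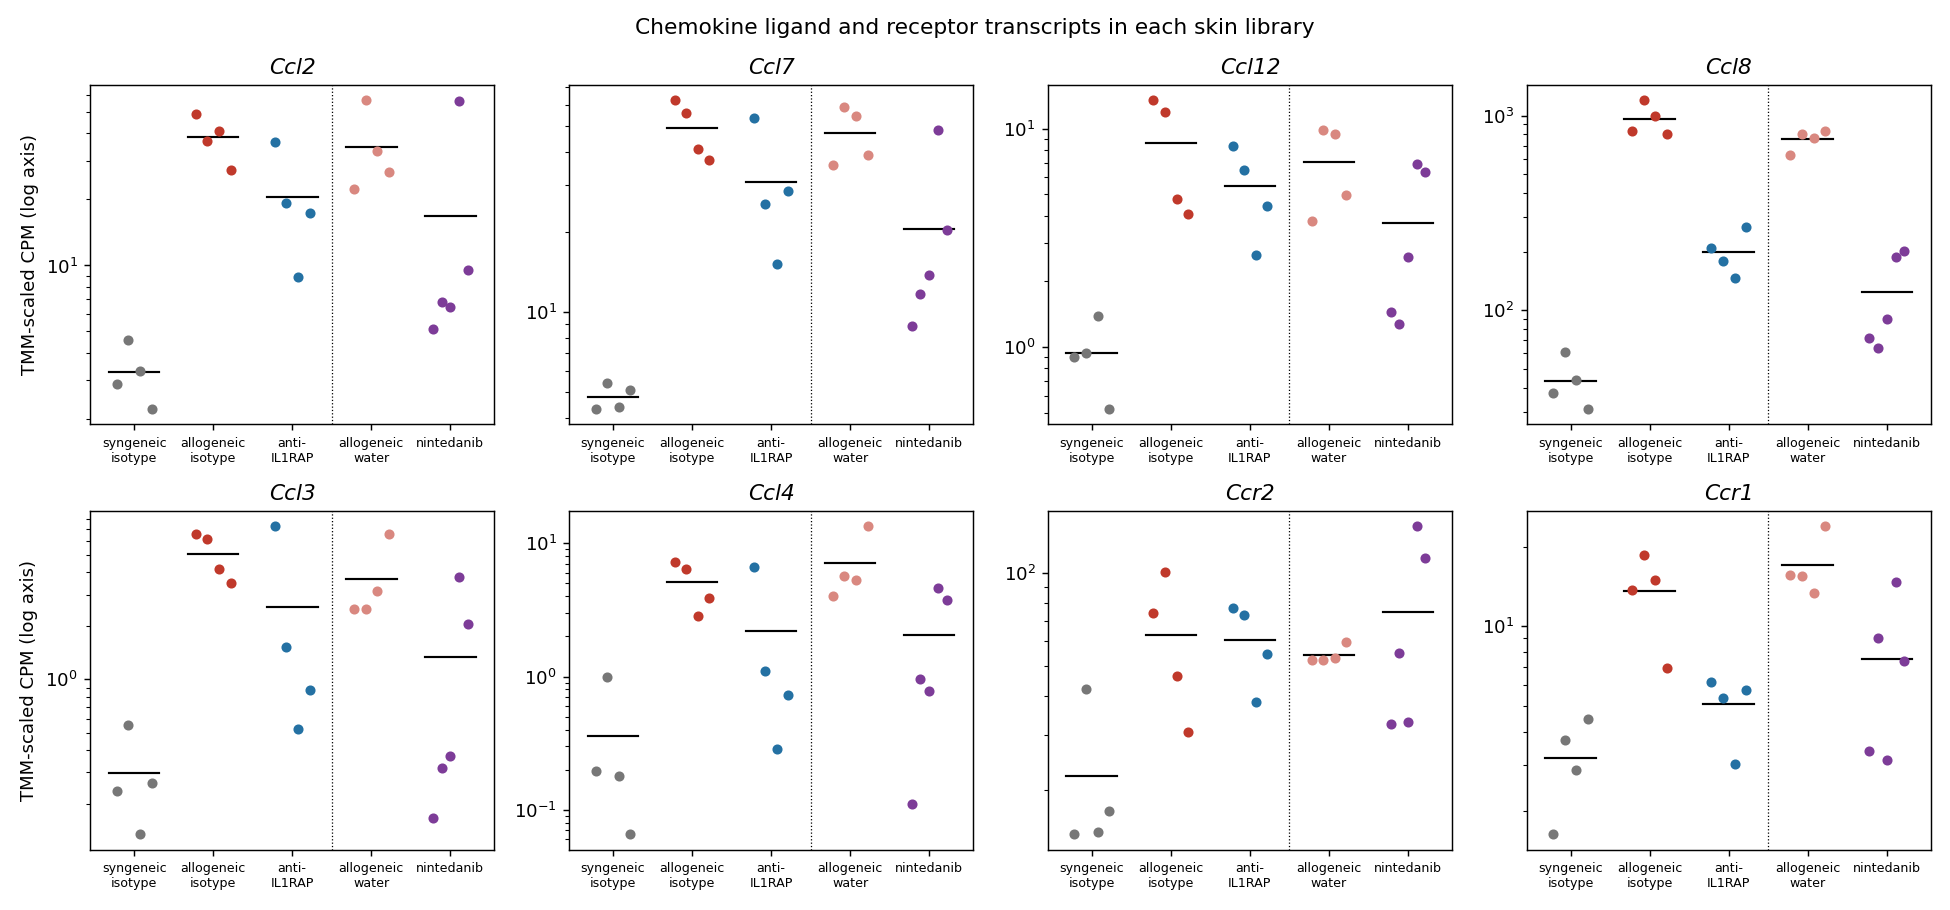
Each dot is 1 library and each black line a group mean; the vertical axes give TMM-scaled CPM on a log scale, and the dotted line parts the counting runs. All 4 allogeneic isotype libraries lie above all 4 syngeneic libraries for each gene except Ccr2, and Ccl8 lies lower in every treated library than in every library of its allogeneic control.

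Isotype-treated allogeneic recipients were set against isotype-treated syngeneic ones to see what the disease changes. All 8 genes were higher in allogeneic skin by edgeR's quasi-likelihood test (Benjamini-Hochberg adjusted p from 3.27e-06 to 0.0275). Over all 20462 genes tested, 13.8% were called higher in this comparison, and 1800 genes were called lower. The median log2 fold change of the 8 genes was 3.46, where that of all tested genes was 0. In 7 of the 8 the groups did not overlap, against 16.8% of all genes that were higher without overlap. The 8 genes were chosen with earlier results of these data known. Contrasts with all genes, here and in the later comparisons, therefore describe the set and do not test it. Donor strain differs between the same groups, and disease and strain cannot be told apart. Transcripts of Y-linked genes part them too, at 4.40 ± 1.63 CPM in syngeneic libraries and 0 in allogeneic isotype libraries (n = 4 each), and their part in the result was not tested.

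Among the CCR2 ligands, Ccl2, the classical monocyte attractant, stood at 2.89, 4.59, 3.31 and 2.22 CPM in syngeneic libraries. In allogeneic isotype libraries it stood at 49.0, 37.0, 41.1 and 27.2 CPM. The lowest allogeneic value was thus far above the highest syngeneic one, and the fitted log2 fold change was 3.57 ± 0.68 (SE, edgeR adjusted p = 0.00128). Ccl7, which acts on CCR2 and other receptors, went from 4.33 to 5.40 CPM over the syngeneic libraries to 37.3 to 62.5 CPM over the allogeneic ones. Its syngeneic values were the tightest of the 8 genes, with an SD of 0.531 CPM around a mean of 4.81, and its log2 fold change was 3.35 ± 0.47 (edgeR adjusted p = 0.000115). Ccl12, a mouse gene with no direct human counterpart, rose by 3.19 ± 0.60 on the log2 scale (edgeR adjusted p = 0.00115). Its allogeneic values fell into a high pair, 13.5 and 11.9 CPM in replicates 1 and 2, and a low pair, 4.79 and 4.06 CPM in replicates 3 and 4, all above the syngeneic maximum of 1.39 CPM.

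Ccl8, the CCR8 agonist, was at 37.6, 61.1, 43.8 and 31.3 CPM in syngeneic skin. In allogeneic isotype skin it was at 830, 1196, 991 and 803 CPM. The 22.0-fold rise (log2 4.46 ± 0.37, edgeR adjusted p = 3.27e-06) had the second lowest p of 20462 genes. Its receptor gene Ccr8 rose by 2.59 ± 0.53 (edgeR adjusted p = 0.0022), from 0.275 ± 0.175 to 1.66 ± 0.449 CPM (SD, n = 4 each).

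Ccl3 and Ccl4 were scarce in syngeneic skin. Ccl3 was at 0.134 to 0.558 CPM there and at 3.50 to 6.56 CPM in allogeneic isotype libraries, a rise of 4.08 ± 0.94 (edgeR adjusted p = 0.00455). Ccl4 rose by 3.85 ± 1.04 (edgeR adjusted p = 0.0125) from 0.0654 to 0.987 CPM to 2.85 to 7.25 CPM. Syngeneic replicate 2 held that upper value of 0.987 CPM, and without it the rise of Ccl4 was 5.10 (edgeR adjusted p = 0.0088).

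Of the 2 receptors, Ccr1 was at 1.64, 3.73, 2.87 and 4.48 CPM in syngeneic and at 13.7, 18.6, 14.9 and 6.94 CPM in allogeneic isotype libraries. The groups did not overlap, and the rise was 2.09 ± 0.44 (edgeR adjusted p = 0.00271). Ccr2 stood at 14.4, 42.2, 14.6 and 17.1 CPM in syngeneic and at 74.0, 100.4, 46.4 and 30.6 CPM in allogeneic isotype libraries. Syngeneic replicate 2 lay above allogeneic replicate 4, so that Ccr2 was the single member whose groups overlapped. Its rise of 1.51 ± 0.47 (edgeR adjusted p = 0.0275) was the smallest of the 8. It missed the threshold when syngeneic replicate 1, 3 or 4 or allogeneic isotype replicate 1 or 2 was left out, and over 18 alternative settings its adjusted p ran from 0.00791 to 0.105, with 12 of them under 0.05.

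**Figure D2:**
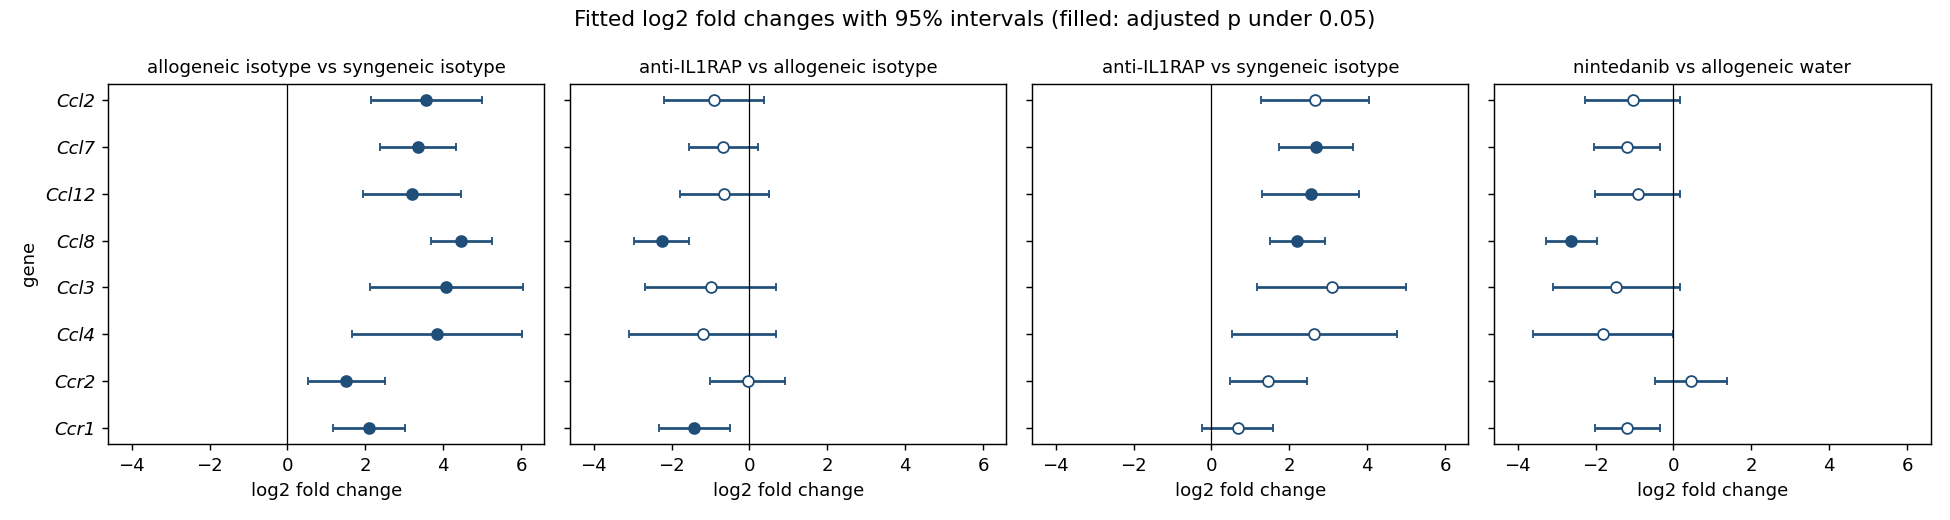
Points are edgeR log2 fold changes of each gene and bars their 95% intervals, 1 panel per comparison; filled points passed an adjusted p of 0.05. All 8 genes are filled in the comparison of allogeneic with syngeneic skin, Ccl8 is filled in all 4 panels, and Ccr1 is filled for the antibody but not for nintedanib.

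Other members of the system moved in both directions in allogeneic skin. Of 14 other CC ligands tested, 7 rose and 2 fell. Ccl5, a T cell attractant, rose by 5.02 ± 1.04, Ccl17, the CCR4 ligand, by 5.38 ± 1.03, Ccl1, the other CCR8 ligand, by 2.97 ± 0.49 and Ccl6 by 2.28 ± 0.49. Ccl27a, the keratinocyte-made ligand of CCR10, fell by 2.14 and Ccl24, an eosinophil attractant, by 2.45 on the log2 scale. Of 12 other receptors 5 rose, among them Ccr9 at 1.72 ± 0.35, and 4 fell. The decoy receptors Ackr1, Ackr2 and Ackr4, which bind chemokines without attracting cells, fell by 1.30, 1.56 and 1.39 on the log2 scale. The median over these 12 receptors was -0.34, and edgeR's adjusted p of the genes named here reached at most 0.0033.

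Of 21 genes that carry the signal of CC receptors, 7 rose and none fell. The kinase Fgr rose by 2.31 ± 0.59, the PI3K regulator Pik3r5 by 2.03 ± 0.54 and the G protein subunit Gnai3 by 0.78 ± 0.15. Among known inducers of these ligands, 11 of 17 tested genes rose and none fell. They included Ifng, which encodes interferon-gamma (4.57 ± 0.83), Tnf (2.60 ± 0.46), the sensor Nod2 (2.16 ± 0.36) and Il1a (1.76 ± 0.35). Of 13 other monocyte attractants, receptors and growth factors, 5 rose and none fell, among them the formyl peptide receptor Fpr2 (3.45 ± 0.93) and the complement receptors C5ar1 (1.69 ± 0.47) and C3ar1 (1.89 ± 0.57). C5ar1 missed the threshold without 1 library and C3ar1 without any of 4, while edgeR's adjusted p for all the genes named in this paragraph was at most 0.0222 with every library in.

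Markers of several cell types moved with the chemokines. Of 16 macrophage markers 8 rose and 1, Folr2, fell, and their summed level was 841 to 1543 CPM in syngeneic and 2012 to 4997 CPM in allogeneic isotype libraries. This sum is weighted to abundant genes such as Lyz2, at 1438 ± 704 CPM in allogeneic isotype and 333 ± 105 CPM in syngeneic skin. With equal weight per gene, as the mean of log2 CPM (1 added), the groups overlapped. That mean was 5.82 in syngeneic replicate 2 and 5.70 in allogeneic isotype replicate 4. Monocyte markers rose in 5 of 14 cases and summed to 253 to 401 CPM against 344 to 754 CPM. All 10 T cell markers rose, from sums of 8.99 to 20.5 CPM to sums of 66.6 to 191.5 CPM. Of 7 neutrophil markers 5 rose, with sums of 9.52 to 51.8 CPM in syngeneic and 60.7 to 129 CPM in allogeneic isotype libraries. Of 9 keratinocyte markers 5 rose, and their sums of 17210 to 29370 CPM and 48380 to 81820 CPM parted the groups too. Of 8 fibroblast markers 3 fell, with sums of 5256 to 7017 CPM against 898.4 to 4989 CPM. The part of these cell types in the chemokine levels was not tested. Set against the macrophage sum within each library, Ccl8 was still higher in allogeneic skin by 2.91 on the log2 scale, and Ccl2 by 2.01. For Ccr2 the ratio overlapped between the groups (difference -0.04, exact 2-sided permutation p = 0.886). Both ligand ratios had no overlap and the smallest p that 4 against 4 can give, 0.0286 in the exact 2-sided permutation test. Adjusted over the 32 ratio tests made this was 0.0508, so no ratio passed 0.05 after adjustment. The ratios were chosen after the values had been seen.

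The comparison of the anti-IL1RAP antibody with isotype antibody in allogeneic recipients asks what blocking the co-receptor changes in diseased skin. It shares the allogeneic isotype libraries with the comparison above. Ccl8 and Ccr1 fell, and the other 6 genes did not pass the test. Over all 20462 genes tested, 5.19% were called lower here, and 1142 genes were called higher. The median log2 fold change of the 8 genes was -0.95 against 0 for all genes. The same 2 genes were the only members without overlap, where 10.9% of all genes were lower without overlap, and the only members with an unadjusted p under 0.05, which 5014 of the 20462 genes had.

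Ccl8 stood at 209, 179, 146 and 266 CPM with the antibody, each far under the lowest isotype value of 803 CPM. It fell by 2.26 ± 0.34 on the log2 scale (edgeR adjusted p = 0.000644), 4.78-fold lower. Over 18 alternative settings the fall stayed between -2.45 and -2.14, with adjusted p of at most 0.00386. Ccr1 stood at 6.17, 5.35, 3.01 and 5.77 CPM, each below the lowest isotype value of 6.94 CPM in replicate 4. Its fall of 1.42 ± 0.43 (edgeR adjusted p = 0.0422) passed in 9 of 18 alternative settings, with adjusted p from 0.00747 to 0.129. It missed the threshold when any 1 of the 8 libraries other than allogeneic isotype replicate 4 was left out.

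The CCR2 ligands stayed closer to their isotype levels. With the antibody Ccl2 was at 36.5, 19.2, 8.89 and 17.4 CPM, so replicate 1 lay within the isotype range and the other 3 below it. Its log2 fold change was -0.91 (95% interval -2.20 to 0.38, edgeR adjusted p = 0.401). Ccl7 was at 53.7, 25.6, 15.1 and 28.6 CPM, with a change of -0.68 (-1.56 to 0.21, edgeR adjusted p = 0.355). Ccl12 ranged from 2.63 to 8.33 CPM and changed by -0.65 (-1.79 to 0.49, edgeR adjusted p = 0.521). These intervals include no change and also falls of more than 2-fold.

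Ccl3 and Ccl4 were split between libraries. Ccl3 was at 7.29 CPM in replicate 1, above every isotype library, and at 1.52, 0.526 and 0.87 CPM in the others, below every isotype library. Ccl4 was at 6.67 CPM in replicate 1, within the isotype range, and at 1.11, 0.287 and 0.733 CPM in the others, below every isotype library. Their log2 fold changes were -0.99 ± 0.80 and -1.20 ± 0.91 (edgeR adjusted p = 0.498 and 0.459), and in no alternative setting did either pass. Without replicate 1 they were -2.39 and -2.84 (edgeR adjusted p = 0.0788 and 0.0735). Replicate 1 was the highest antibody library for every member but Ccl8. It also had the highest macrophage sum of its group, 3329 CPM against 1713 to 2291, and the highest T cell sum, 125.8 CPM against 37.8 to 66.4. The part of these cell types in its chemokine levels was not tested.

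Ccr2 was at 77.0, 73.0, 38.4 and 54.8 CPM with the antibody, inside the isotype range in all 4 libraries. Its log2 fold change was -0.05 (95% interval -1.02 to 0.92, edgeR adjusted p = 1). The ratio of Ccr1 to Ccr2 within a library, by contrast, was 0.0732 to 0.105 with the antibody and 0.185 to 0.322 with isotype. These ranges did not overlap (difference -1.42 on the log2 scale, exact 2-sided permutation p = 0.0286, adjusted 0.0508).

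Ratios of Ccl8 to the CCR2 ligands were also lower with the antibody. The ratio of Ccl8 to Ccl7 was 3.88 to 9.64 with the antibody, 13.3 to 24.1 with isotype and 6.13 to 11.3 in syngeneic libraries. Its difference between antibody and isotype was -1.48 on the log2 scale, and the corresponding values were -1.22 for Ccl8 over Ccl2 and -1.70 for Ccl8 over Ccl12. None of these 3 ratios overlapped between the 2 groups (exact 2-sided permutation p = 0.0286 each, adjusted 0.0508). The gap was narrow for Ccl8 over Ccl2, at 5.71 to 16.4 against 16.9 to 32.4. It was narrow too for Ccl8 over Ccl12, at 25.0 to 59.9 against 61.6 to 207. With 1 library left out, the exact 2-sided permutation p reached 0.0857 for Ccl8 over Ccl2 and 0.0571 for each of the others. Between antibody and syngeneic libraries all 3 ratios overlapped.

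Macrophage markers summed to 1713 to 3329 CPM with the antibody, a range that overlapped that of isotype, and 1 of 16 fell. Relative to this sum Ccl8 was lower by 1.70 on the log2 scale and Ccr1 by 0.81, while Ccr2 was higher by 0.62, each without overlap (exact 2-sided permutation p = 0.0286, adjusted 0.0508). Ccl2 over the same sum differed by -0.48 and overlapped (exact 2-sided permutation p = 0.171, adjusted 0.239). Of 7 neutrophil markers tested 3 fell, with sums of 22.8 to 42.2 CPM against 60.7 to 129 CPM. Of 9 keratinocyte markers 3 fell, with sums of 19560 to 30360 CPM against 48380 to 81820 CPM. Both ranges part the groups as Ccl8 does, and their part in the fall of Ccl8 was not tested. Of 8 fibroblast markers 3 rose, with sums of 4105 to 10680 CPM that overlapped those of isotype. Y-linked transcripts were at 15.2 CPM in anti-IL1RAP replicate 2 and at 0 in the other 3 antibody libraries, and without replicate 2 the fall of Ccl8 was -2.22 (edgeR adjusted p = 0.00293).

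**Figure D3:**
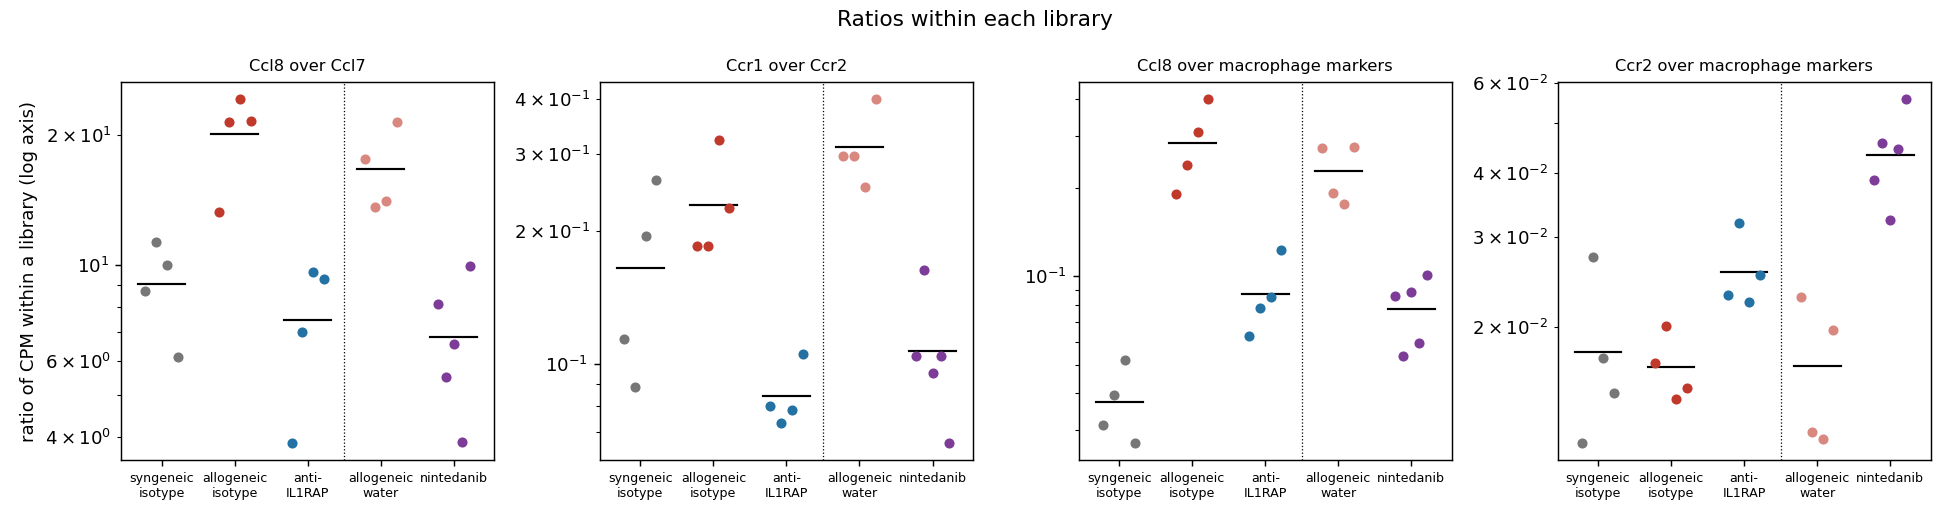
Dots are ratios of CPM within 1 library on a log axis, black lines group means, and the dotted line parts the counting runs. Ccl8 over Ccl7 is 3.88 to 9.64 with the antibody against 13.3 to 24.1 with isotype, Ccr1 over Ccr2 and Ccl8 over the macrophage sum lie lower in both treated groups than in their controls, and Ccr2 over the macrophage sum lies higher.

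Among the other CC ligands tested, 1 of 14 rose with the antibody, Ccl27a, at 98.1 ± 16.0 CPM against 24.6 ± 10.6 (SD, n = 4 each; log2 1.99 ± 0.41, edgeR adjusted p = 0.00488), and none fell. Ccl5 was at 16.8 ± 16.5 against 76.7 ± 35.5 CPM but did not pass (edgeR adjusted p = 0.135). Of 12 receptors 4 rose and 1 fell. Ackr1 rose by 1.69 ± 0.21 (edgeR adjusted p = 0.000199), Ackr2 by 1.60 ± 0.33 and Ackr4 by 1.13 ± 0.30. Ccr4 rose by 1.53 ± 0.47 (edgeR adjusted p = 0.041), and Ccr9 fell by 1.95. Ackr4 missed the threshold without any of 4 libraries and Ccr4 without any of 7. Ccr8 did not pass (edgeR adjusted p = 0.73).

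Of 21 signalling genes 1 fell, Gnai3, by 0.50 (edgeR adjusted p = 0.0415), and this was lost without any of 7 libraries. Of 17 inducers Il1a and Nod2 fell, by 1.46 and 1.44 on the log2 scale (edgeR adjusted p = 0.011 and 0.0121). The call of Il1a was lost without 1 library. None of the 13 other attractants and growth factors passed the test.

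Antibody-treated skin was also set against syngeneic skin, to see how far each transcript lay from its level there. Donor strain differs between these groups too, so remaining disease and strain cannot be told apart. Y-linked transcripts were at 2.73 to 6.61 CPM in syngeneic libraries and at 0 in every antibody library but replicate 2 (15.2 CPM). Their part in the result was not tested. This comparison shares libraries with both of the above. Ccl7, Ccl12 and Ccl8 were higher with the antibody than in syngeneic skin, where 0.777% of all genes were called higher. The median log2 fold change of the 8 genes was 2.60, and that of all genes 0.03. In 4 of the 8 (Ccl2, Ccl7, Ccl12 and Ccl8) the groups did not overlap, against 10.8% of all genes. Ccl7 was higher by 2.68 ± 0.45 (edgeR adjusted p = 0.00832) and Ccl8 by 2.20 ± 0.34 (edgeR adjusted p = 0.00365), and both calls held in all 18 alternative settings. Ccl12 was higher by 2.55 ± 0.59 (edgeR adjusted p = 0.0485), but passed in 7 of 18 settings and in 1 of the 8 that left out a library (anti-IL1RAP replicate 3). Ccl2 differed by 2.66 ± 0.66 and missed the threshold (edgeR adjusted p = 0.0711), although 4 of 18 settings called it. Ccl3 had the largest difference of the 8, 3.09 (95% interval 1.17 to 5.01), but did not pass (edgeR adjusted p = 0.129). Ccl4 differed by 2.64 (95% interval 0.52 to 4.77, edgeR adjusted p = 0.257), and the groups overlapped for both genes. Ccr1 differed by 0.67 (95% interval -0.23 to 1.58, edgeR adjusted p = 0.539) and Ccr2 by 1.46 ± 0.47 (edgeR adjusted p = 0.17).

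The comparison of nintedanib with water in allogeneic recipients asks the same of a kinase inhibitor, in the second counting run and with other libraries. Of the 8 genes Ccl8 fell, and the others did not pass the test. Over all 20462 genes tested, 3.76% were called lower, and 1137 genes were called higher. The median log2 fold change of the 8 genes was -1.19 against 0 for all genes. Ccl8 was also the single member without overlap, where 3.2% of all genes were lower without overlap, and 4 members had an unadjusted p under 0.05, as did 5212 of the 20462 genes.

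Ccl8 was at 626, 803, 771 and 834 CPM with water and at 71.8, 64.3, 90.1, 188 and 202 CPM with nintedanib. The highest treated value lay far under the lowest water value. The fall was 2.62 ± 0.32 on the log2 scale (edgeR adjusted p = 0.000419), 6.15-fold lower, with the fourth lowest p of 20462 genes. It passed in all 21 alternative settings, with values of -3.01 to -2.36. A fit of this run's libraries alone called 94 genes in place of 1906, and Ccl8 was among them. Without nintedanib replicates 1 and 3, the libraries with high hair keratin counts, it was -2.36 (edgeR adjusted p = 0.00283).

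Nintedanib replicate 4 was the highest of its group for every member but Ccl8. Ccl2 was at 5.12, 6.79, 6.47 and 9.58 CPM in replicates 1, 2, 3 and 5, below the water range of 22.3 to 56.6 CPM, and at 56.2 CPM in replicate 4. Its log2 fold change was -1.05 ± 0.58 (edgeR adjusted p = 0.276) with all libraries and -2.33 (edgeR adjusted p = 0.00178) without replicate 4, but -0.56 (edgeR adjusted p = 0.69) without replicates 1 and 3. Ccl7 was at 8.85 to 20.4 CPM in those 4 libraries and at 48.3 CPM in replicate 4, against 35.7 to 59.0 CPM with water. It changed by -1.19 ± 0.40 (edgeR adjusted p = 0.0662), and by -1.81 (edgeR adjusted p = 0.00272) without replicate 4, but by -0.85 (edgeR adjusted p = 0.249) without replicates 1 and 3. Ccl12 was lower in replicates 1 to 3 (1.27 to 2.59 CPM) than in replicates 4 and 5 (6.93 and 6.35 CPM), which lay within the water range of 3.79 to 9.92 CPM. Its change was -0.92 ± 0.52 (edgeR adjusted p = 0.285), and no alternative setting called it. Without replicates 1 and 3 it was -0.58 (edgeR adjusted p = 0.659).

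Ccl3 and Ccl4 were highest in replicates 4 and 5 as well. Ccl3 was at 0.167 to 0.369 CPM in replicates 1 to 3, then 3.78 and 2.04 CPM, against 2.49 to 6.61 CPM with water. Ccl4 was at 0.111 to 0.954 CPM in replicates 1 to 3, then 4.58 and 3.74 CPM, against 4.03 to 13.5 CPM. The log2 fold changes were -1.47 ± 0.78 and -1.81 ± 0.86 (edgeR adjusted p = 0.25 and 0.194). Without replicates 1 and 3 they were -0.89 and -1.25 (edgeR adjusted p = 0.606 and 0.468).

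Ccr1 was at 3.40, 9.01, 3.14, 14.7 and 7.37 CPM with nintedanib and at 15.6, 15.5, 13.4 and 23.9 CPM with water. Only replicate 4 overlapped the water libraries. The change was -1.18 ± 0.40 (edgeR adjusted p = 0.0691), and -1.60 (edgeR adjusted p = 0.0123) without replicate 4, but -0.76 (edgeR adjusted p = 0.24) without replicates 1 and 3. Ccr2 was at 52.4, 52.5, 53.0 and 59.9 CPM with water, the tightest group of any member with a coefficient of variation of 6.69%. With nintedanib it was at 32.6, 55.0, 32.9, 141 and 111 CPM, both above and below the water values. Its change was 0.46 (95% interval -0.47 to 1.38, edgeR adjusted p = 0.6).

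Replicates 4 and 5 had the highest macrophage sums of the nintedanib group, 3171 and 2003 CPM against 841 to 1201 CPM in replicates 1 to 3, and the highest T cell sums, 136 and 76.0 CPM against 14.5 to 32.9 CPM. Water libraries had macrophage sums of 2288 to 4378 CPM. Neutrophil markers, of which 2 of 7 fell, summed to 13.6 to 37.4 CPM with nintedanib and 55.2 to 170.4 CPM with water, ranges that part the groups as Ccl8 does. Keratinocyte markers, of which 3 of 9 fell, summed to 7636 to 45400 CPM against 40050 to 84820 CPM. Y-linked transcripts were at 11.7 and 27.9 CPM in nintedanib replicates 2 and 4 and at 0 in the other nintedanib and all water libraries. The part of these differences in the chemokine levels was not tested. The fall of Ccl8 was -2.46 without replicate 2 and -2.85 without replicate 4 (edgeR adjusted p = 0.000924 and 0.000318). Within libraries, Ccl8 over the macrophage sum was lower with nintedanib by 1.57 on the log2 scale and Ccr2 over it higher by 1.40, each without overlap. The ratio of Ccr1 to Ccr2 was 0.0662 to 0.164 with nintedanib and 0.252 to 0.399 with water, and Ccl8 over Ccl12 was 27.2 to 50.5 against 81.0 to 168. These 4 ratios had the smallest p that 5 against 4 can give (exact 2-sided permutation p = 0.00794, adjusted 0.0508). Ccl8 over Ccl7 was 3.89 to 9.92 against 13.6 to 21.4, again without overlap (exact 2-sided permutation p = 0.0159, adjusted 0.0508). Ccl8 over Ccl2, at 3.35 to 21.1 against 14.2 to 31.1, overlapped (difference -1.13, exact 2-sided permutation p = 0.0397, adjusted 0.0668). Over the macrophage sum, Ccl2 and Ccr1 overlapped as well (differences -0.44 and -0.18, exact 2-sided permutation p = 0.31 and 0.659, adjusted 0.381 and 0.68).

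**Figure D4:**
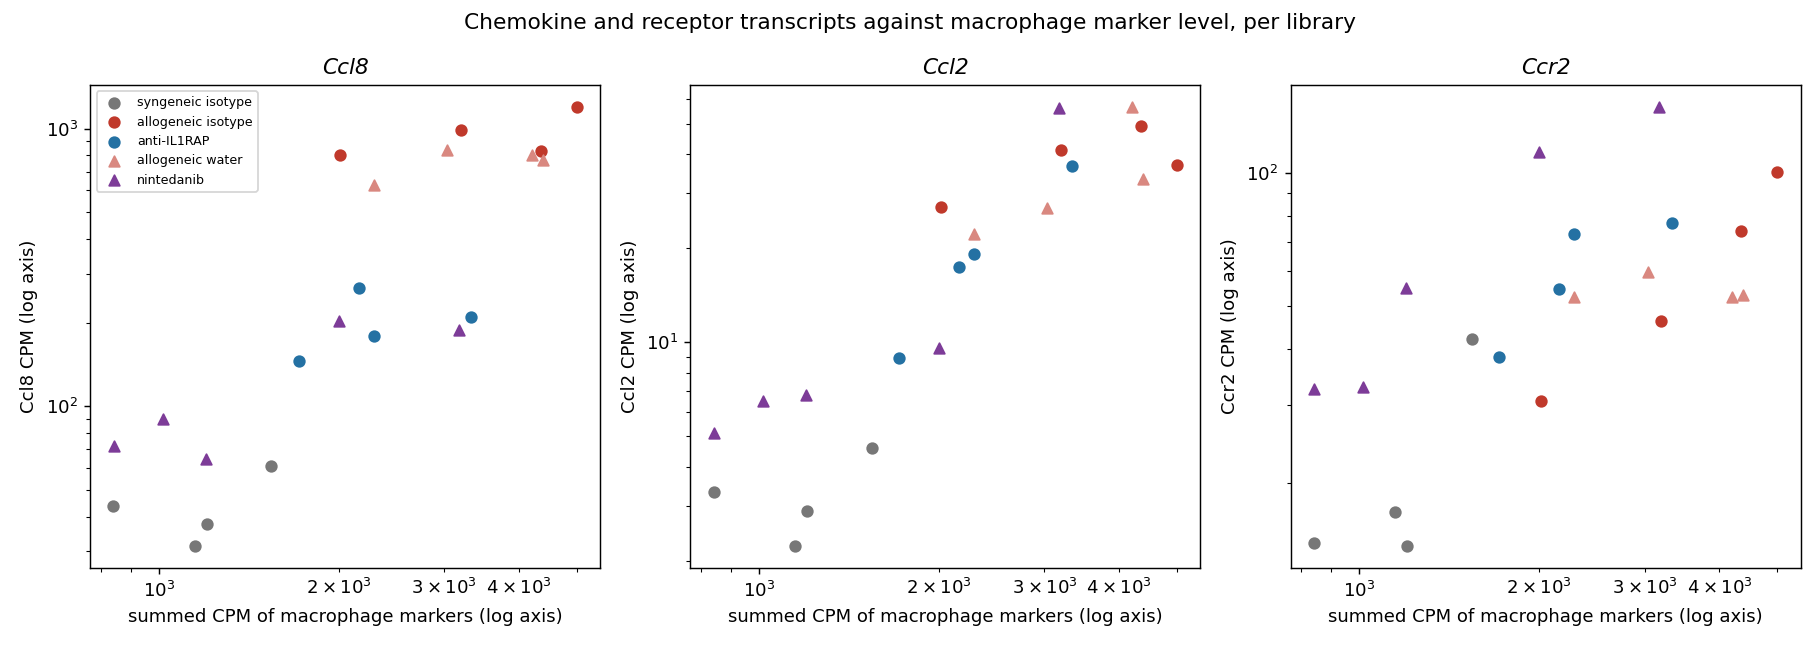
Each point is 1 library, with the summed CPM of macrophage markers on the horizontal log axis and the CPM of Ccl8, Ccl2 or Ccr2 on the vertical log axis; circles are the first counting run and triangles the second. Ccl8 is 146 to 266 CPM in anti-IL1RAP libraries at macrophage sums of 1713 to 3329 CPM and 803 to 1196 CPM in allogeneic isotype libraries at 2012 to 4997 CPM, and Ccr2 is highest in nintedanib replicates 4 and 5.

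Of the wider system, 1 of 14 CC ligands fell with nintedanib, Ccl1, by 1.53 ± 0.44 (edgeR adjusted p = 0.0354). It was lost without any of 4 libraries and passed in 10 of 21 settings. Of 12 receptors Ackr4 rose by 1.56 ± 0.30 (edgeR adjusted p = 0.00465) and none fell. Of 21 signalling genes 3 fell, the phospholipase Plcb3 by 0.51, the receptor kinase Grk2 by 0.50 and the Rac activator Prex1 by 1.19 on the log2 scale (edgeR adjusted p = 0.011, 0.0254 and 0.048). Plcb3 missed the threshold without 1 library, Grk2 without either of 2 and Prex1 without any of 7. Of 17 inducers Nod2 fell by 1.85 (edgeR adjusted p = 0.00299) and the TNF receptor Tnfrsf1a by 0.57 (edgeR adjusted p = 0.0087). Csf1, the macrophage growth factor, fell by 0.66 (edgeR adjusted p = 0.0441), a call lost without any of 5 libraries. In the fit of this run's libraries alone none of the 8 genes named in this paragraph passed (edgeR adjusted p = 0.064 for Nod2 to 0.212 for Csf1).

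The treatments were compared with each other as the difference of their effects, each against the control of its own run. No member differed, and of 17132 genes tested 0% were called by edgeR, although 2495 had an unadjusted p under 0.05 and DESeq2 called 414. For Ccl8 the antibody effect minus the nintedanib effect was 0.36 (95% interval -0.57 to 1.30, edgeR adjusted p = 0.753). For Ccr1 it was -0.23 (-1.46 to 1.00), for Ccr2 -0.50 (-1.84 to 0.84) and for Ccl2 0.13 (-1.63 to 1.90). The intervals are wide enough that effects more than 2-fold apart are not excluded for any of these genes.

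The genes whose pattern over the 12 libraries of the first run was most like each member were found among 14604 genes by Pearson's r of log2 CPM. These values are descriptions over libraries that share the group differences. Ccl2 was most like Ccl7 (r = 0.985, and 0.97 over the 9 libraries of the second run). Itpka (second run 0.674) and Ubd (second run 0.904) also reached 0.985 with Ccl2. Ccl4 was most like Ccl3 (r = 0.969, second run 0.963). Ccl7 was closest to the MHC class I genes H2-Q5 (0.993, second run 0.805) and H2-Q4 (0.992, second run 0.892). Ccl12 was closest to Slfn9 (0.986), a pair with r = 0.34 in the second run. Ccl3 was closest to Ifng (0.982, second run 0.835) and Ccl5 (0.979, second run 0.903). After the group means had been subtracted, Ccl2 and Ccl7 kept r = 0.862, and Ccl3 and Ccl4 kept 0.921.

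Ccl8 was most like Cxcl11, a ligand of CXCR3 (r = 0.99, second run 0.902), and Rnf19b (0.99, second run 0.807). Within groups these fell to 0.572 and 0.515. Ccr2 was most like Ptprc, which encodes the leukocyte antigen CD45 (r = 0.992), Clec4a2 (0.987) and Cd48 (0.986), and within groups these stayed at 0.986, 0.966 and 0.973. In the second run they were 0.767, 0.674 and 0.709. Ccr1 had its highest r with Bak1, at 0.961 (second run 0.566). In the first run, where they were picked, the 3 genes nearest Ccr2 kept their r once group means were removed, whereas those nearest Ccl8 kept less of it. Ccl8 parted the groups of that run without overlap, whereas Ccr2 overlapped in each comparison. This contrast was therefore set in part by how the genes were picked. Over the libraries of the second run, with group means left in, r was higher for the genes nearest Ccl8 (0.807 to 0.902) than for those nearest Ccr2 (0.674 to 0.767).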

How the data were processed

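Poly-A RNA from skin was sequenced without strand marking, per the labels' protocols. The deposited values are whole-number counts per gene symbol, made with FastQC, Trimmomatic, STAR and featureCounts on GRCm39, per the submitters' processing notes, with tool versions, settings and gene annotation not given in the sources used here. In all, 64050 symbols were listed; 21830 were counted in both runs, 12094 in the first alone and 6185 in the second alone.

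All 21 libraries, scaled by TMM, entered 1 quasi-likelihood fit in edgeR 4.0.16 (R 4.3.3; glmQLFit, glmQLFTest) with group means as coefficients. filterByExpr (minimum count 10) left 20462 genes, and a change was called where the p adjusted over these by Benjamini-Hochberg was under 0.05. The shared spread may be too small for a more variable group. The calculation was also run on simulated data in which all groups shared the same spread per gene. Those data cannot show how it handles a more variable group. Members and gene lists were chosen with earlier results of these data known. Named genes were all 8 members, up to 6 called genes of lowest p in each of 5 pathway lists (examples are given, and some genes are not reported here), and the 3 genes most like each member. Ratios were compared by exact 2-sided permutation tests, 32 in all. Promoters are RefSeq's (GRCm38.p6), and exon lengths GENCODE M21's; neither coordinate set was joined to the counts.

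Alternatives were RLE factors, no filter, a replicate block, fewer libraries or symbols, muscle or hair follicle content or sequencing lane as a covariate, DESeq2 1.42.0, and each library left out in turn. Leaving out nintedanib replicates 1 and 3 together, and leaving out libraries for the ratios, were chosen after seeing the data. Figures were drawn with matplotlib.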

Additional observations from a re-analysis of the deposited data

Results flagged for a closer look

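In 40 sets of values (8 genes in 5 groups), the highest or lowest library was checked for a gap to its nearest neighbour that is large for the group's range (Dixon's criterion at 95%). In 7 sets a library stood apart, always as the highest value. Chance flags about 1 in 20 sets, and the sets share libraries.

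Ccl2 was at 56.2 CPM in nintedanib replicate 4, with the next library at 9.58 CPM. In anti-IL1RAP replicate 1, Ccl3 was at 7.29 CPM (next 1.52) and Ccl4 at 6.67 CPM (next 1.11). In water replicate 4, Ccl3 was at 6.61 CPM (next 3.14) and Ccr2 at 59.9 CPM (next 53.0). In syngeneic replicate 2, Ccl4 was at 0.987 CPM (next 0.195) and Ccr2 at 42.2 CPM (next 17.1). The 59.9 CPM of Ccr2 stands apart only because the other 3 water libraries lie within 52.4 to 53.0 CPM.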

How the results depend on the processing

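Ccl8 kept its direction and its call in all 4 comparisons under every alternative run, as did Ccl7 against syngeneic skin in both comparisons. Libraries with the same title number were not more alike than others. Their deviations correlated at -0.274 to 0.407 over 16 pairs, 3 of them over 0.1, while pairs of different numbers gave -0.479 to 0.465. So few pairs cannot exclude a pairing, and a replicate block changed some calls, as given below. The numbers in the descriptions gave -0.42 to 0.342 over 14 pairs, 4 over 0.1.

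Leaving out 1 library at a time gave 3580 to 4953 changed genes and 7 to 8 members for allogeneic against syngeneic isotype. It gave 1284 to 2168 genes and 1 to 2 members for antibody against isotype, 31 to 152 and 2 to 3 for antibody against syngeneic, 782 to 2794 and 1 to 4 for nintedanib against water, and 0 to 19 genes and 0 members for the difference of effects. For antibody against isotype (2204 genes, 2 members), the replicate block by description number gave 1053 genes and 1 member, no filter 1 member and libraries of the same run alone 3664 genes. For antibody against syngeneic (166 genes, 3 members), the replicate block by title number gave 299 genes, the same run 505, only the 2 groups 2131 and 5 members, symbols of both runs 106, the muscle covariate 108, the hair follicle covariate 360 and DESeq2 678 and 5 members. For nintedanib against water (1906 genes, 1 member), no filter gave 1190 genes, libraries of its own run alone, which are those 2 groups, 94, leaving out replicates 1 and 3 together 1225 and DESeq2 3039 with 3 members. There the replicate block by title number called 5 members (Ccl7, Ccl8, Ccl3, Ccl4 and Ccr1) and that by description number 4 (without Ccr1). The difference of effects had 2 genes with either replicate block, 1 with the hair follicle covariate and 414 with DESeq2. The causes were not tested.

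All changes of sign were in values that did not pass the test. Ccr2 with the antibody was 0.041 and 0.38 with the replicate block by title and by description number, and -0.27 to 0.26 without single libraries. Ccr2 with nintedanib was -0.0266 and -0.0269 with the replicate blocks. For the difference of effects, the blocks gave Ccr2 0.068 and 0.41 and Ccr1 0.0049 and 0.097, and the hair follicle covariate gave Ccl2 -0.22. Without single libraries Ccl2 ran from -0.29 to 1.40, Ccl3 from -0.89 to 1.37, Ccl4 from -0.99 to 1.16 and Ccr1 from -0.45 to 0.17. Likewise, the ratio of Ccr2 to the macrophage sum ran from -0.21 to 0.19 (allogeneic against syngeneic) and that of Ccr1 from -0.42 to 0.040 (nintedanib).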
